A study of Mus musculus with 96 samples.

Results

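The genes described here encode subunits of the LSD1-CoREST complex. They are Kdm1a, which encodes the demethylase LSD1, the scaffold genes Rcor1, Rcor2 and Rcor3, the histone deacetylase genes Hdac1 and Hdac2, and the accessory subunit genes Phf21a, Hmg20b, Gse1 and Zmym2. They were taken by symbol from a count table of 55487 genes, all 10 were found, and the rule used no measured value. The table holds 96 single-cell transcriptomes, 1 for each daughter of 48 divisions of cultured wild type mouse horizontal basal cells (HBCs), the reserve stem cells of the olfactory epithelium (OE). The OE came from adult mice of 6 to 8 weeks, 2 days after injection of methimazole, a drug that strips the OE down to its HBCs. The study's methods moved the cultures from a Tropoelastin to a Fibronectin coating to obtain divisions, and each daughter was picked by mouth pipette, lysed with ERCC spike-in RNA and prepared by G&T-seq, which reads the polyA RNA of 1 cell. All cells form 1 group, and the labels name neither the mouse nor the culture of a cell. The values therefore describe these 96 cells, and no test or p-value was computed.

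LSD1 removes methyl groups from H3K4 and needs a CoREST scaffold to do so on nucleosomes. The scaffold also binds HDAC1 or HDAC2, so that the complex can take both acetyl and methyl marks from histone tails. DNA-binding repressors bring it to their targets. It is best known for holding neuronal genes silent with REST in non-neuronal cells, and in the olfactory system LSD1 is needed for the choice of a single odorant receptor gene.

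The markers of the labelled cell type were present throughout. Trp63, Krt5 and Krt14, which mark HBCs, were counted in 96 of 96 cells, with median levels of 80.2, 2090 and 3672 TPM, a level scaled for gene length and for the total of the cell. Of the 5 olfactory neuron markers, 4 sustentacular, 5 globose basal, 3 microvillous, 3 respiratory, and 4 fibroblast or glial markers searched, each had a median of 0 TPM. Some were counted in a minority of cells, most often Gnal in 30, Gap43 in 22, Gng13 in 16, Pdgfra in 15 and Lgr5 in 14. Of 3 immune markers, Tyrobp was counted in 0 cells and Ptprc in 7, while the lysosomal gene Cd68 was counted in 74 cells at a median of 1.11 TPM. The cells held 29454150 to 44849003 counts each, and 1.06% to 5.75% of all counts came from ERCC. The proliferation gene Mki67 was counted in 96 cells at a median of 72.1 TPM. Normalized counts below were divided by a size factor from the 22 ERCC transcripts present in every cell.

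The upstream sequences of the demethylase gene and the 3 scaffold genes are shown because these genes lie at different levels in the same cells. They come from RefSeq on GRCm38.p6, in which 9 of the 10 genes had an entry (Hdac1 had none). Each runs 5′ to 3′ and ends before the annotated start of the gene. Capitals mark the GC box GGGCGG, the CCAAT box CCAAT and their reverse complements, CCGCCC and ATTGG.
Kdm1a (chr4:136602724-136602973, minus strand): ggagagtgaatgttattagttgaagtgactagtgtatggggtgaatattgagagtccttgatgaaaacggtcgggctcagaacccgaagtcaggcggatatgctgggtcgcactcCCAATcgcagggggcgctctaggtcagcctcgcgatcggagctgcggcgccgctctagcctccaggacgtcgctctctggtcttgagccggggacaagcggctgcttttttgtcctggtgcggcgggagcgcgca
Rcor1 (chr12:111039117-111039350, plus strand): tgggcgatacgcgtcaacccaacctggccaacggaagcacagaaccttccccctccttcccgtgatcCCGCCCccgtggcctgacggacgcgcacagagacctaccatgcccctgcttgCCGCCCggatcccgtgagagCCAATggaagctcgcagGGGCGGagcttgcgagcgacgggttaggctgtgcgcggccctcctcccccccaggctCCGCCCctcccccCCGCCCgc
Rcor2 (chr19:7267144-7267324, plus strand): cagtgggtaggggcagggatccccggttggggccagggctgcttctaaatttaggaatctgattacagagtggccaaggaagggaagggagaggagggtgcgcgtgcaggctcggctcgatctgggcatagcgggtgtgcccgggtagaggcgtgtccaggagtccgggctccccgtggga
Rcor3 (chr1:192138063-192138290, minus strand): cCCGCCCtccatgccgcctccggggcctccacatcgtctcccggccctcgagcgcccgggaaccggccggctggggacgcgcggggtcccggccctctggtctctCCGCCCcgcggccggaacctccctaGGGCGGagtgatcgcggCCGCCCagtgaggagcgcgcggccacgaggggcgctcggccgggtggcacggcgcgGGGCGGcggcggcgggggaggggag
All 4 windows were rich in CpG. In the 250 bases before the RefSeq start, of which the last 16 are not printed for Rcor1, 69 for Rcor2 and 22 for Rcor3, Kdm1a had 21 CpG, Rcor1 25, Rcor2 17 and Rcor3 39, beside a median of 6 over 32851 promoters. A GC box occurred 5 times in the window of Rcor1, 6 times in that of Rcor3, 1 time in that of Rcor2, within the bases not printed, and 0 times in that of Kdm1a. A GC box was present in 32.7% of all promoters and a CCAAT box, found in the windows of Kdm1a and Rcor1, in 33.8%. Rcor2, the scaffold gene with the lowest level, had a window with more CpG than 76.5% of promoters. The motifs were matched by letters alone.

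LSD1-CoREST transcripts were present in nearly all HBC daughters, except that the scaffold gene Rcor2 and the accessory gene Gse1 were absent from the counts of many cells. Hdac1, Hdac2, Hmg20b, Zmym2, Rcor1 and Rcor3 were counted in 96 of 96 cells and Kdm1a in 95. Phf21a was counted in 86 cells (89.6%, exact 95% interval 81.7 to 94.9), Gse1 in 54 (56.2%, 45.7 to 66.4) and Rcor2 in 40 (41.7%, 31.7 to 52.2). These intervals cover counting error only. Thus 6 of 10 genes were counted in every cell, beside 31.8% of the 14463 genes that passed a filter on low values. The filter asked for at least 10 counts in 10% of the cells, and all 10 genes passed it, beside 26.1% of all genes in the table.

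**Figure D1:**
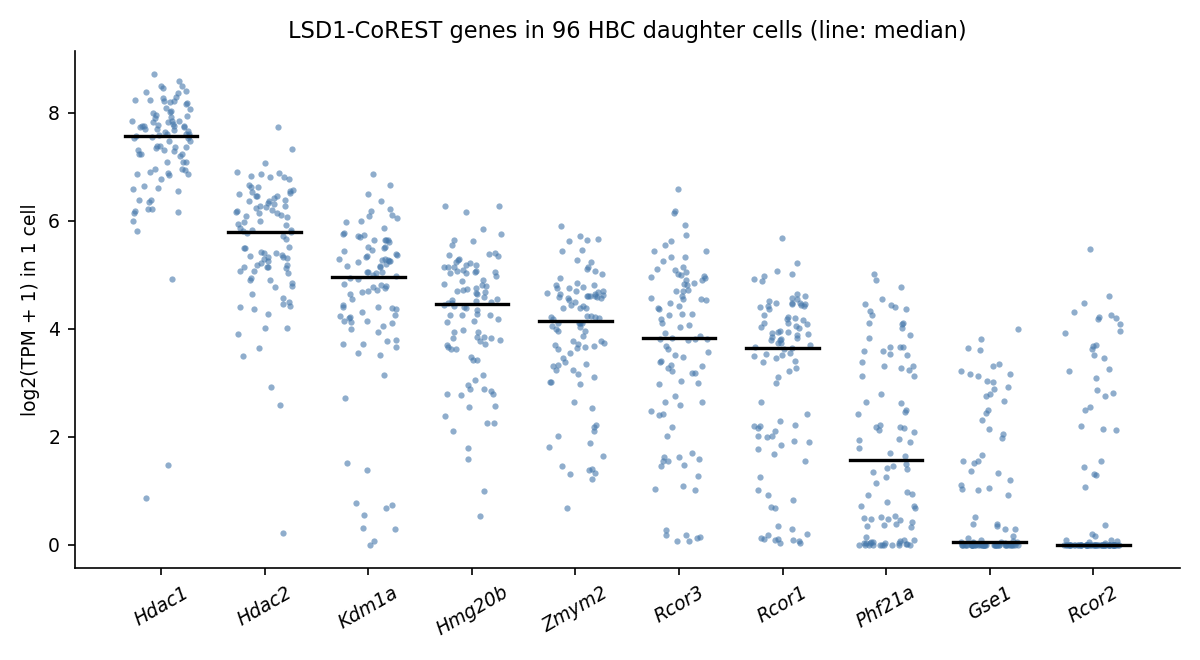
Level of each LSD1-CoREST gene in each of the 96 cells, as log2(TPM + 1), ordered by median (black line). Hdac1 lies highest with a median of 190.6 TPM, while most cells lie at 0 for Rcor2.

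Kdm1a (GRCm38 chr4:136550540-136602723, minus strand) ranged from 0 to 115.4 TPM, with a median of 30.2 and a middle range, from the 25th to the 75th percentile, of 16.6 to 44.4. Its median was higher than that of 73.9% of the genes past the filter. Only 8 cells were under 1 TPM, so that the low values formed a thin tail below a broad main group. Kdm1b, the paralog of Kdm1a that encodes the other flavin-dependent H3K4 demethylase, was counted in 77 cells at a median of 1.56 TPM. Kdm1a was the higher of the 2 in 77 of 96 cells (80.2%, 70.8 to 87.6).

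Rcor1 and Rcor3, which encode CoREST1 and CoREST3, were the scaffold genes of these cells. Rcor3 ranged from 0.049 to 95.2 TPM with a median of 13.2, and Rcor1 ranged from 0.023 to 50.3 TPM with a median of 11.6. Rcor2, which encodes CoREST2 and is known from neural progenitors and embryonic stem cells, ranged from 0 to 43.4 TPM with a median of 0. The ranges overlapped widely. Rcor3 was the highest of the 3 in 58 of 96 cells, Rcor1 in 32 and Rcor2 in 6. The summed level of the 3 genes ranged from 1.89 to 114.5 TPM with a median of 30.4, close to the median of Kdm1a. Rcor1 and Rcor3 both reached 1 TPM in 75 cells, and in 0 cells were all 3 under 1 TPM. Where Rcor2 was counted it was often at a moderate level, with a median of 6.17 TPM over 40 cells, and 5 cells had 1000 or more counts.

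Hdac1 ranged from 0.826 to 419.8 TPM with a median of 190.6, above 94.9% of the genes past the filter. Hdac2 ranged from 0.157 to 213.4 TPM with a median of 54.3. Hdac1 was the higher deacetylase gene in 89 of 96 cells (92.7%, 85.6 to 97.0), and its median was 6.32 times that of Kdm1a. HDAC1 and HDAC2 also serve the NuRD and SIN3 complexes, whose subunit genes reached similar levels, with the highest medians at 217.8 TPM for Rbbp7 and 155.1 TPM for Sin3b. The pseudogene Hdac1-ps was counted in all 96 cells at a median of 138.5 counts, beside 8517 for Hdac1, so that a small share of Hdac1 reads may be assigned to the wrong copy.

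The accessory genes fell into an expressed and a sparse group. Hmg20b, which encodes the DNA-binding subunit BRAF35, ranged from 0.445 to 76.9 TPM with a median of 21.0. Zmym2, a zinc finger subunit that binds SUMO, ranged from 0.612 to 59.2 TPM with a median of 16.7. Phf21a encodes BHC80, the reader of unmethylated H3K4. It ranged from 0 to 31.5 TPM with a median of 1.98, and 41 cells were under 1 TPM. Gse1 ranged from 0 to 15.0 TPM, with a median of 0.033 and 62 cells under 1 TPM. Gse1 was the least certain gene of the list, because 2758 of its 10351 exon bases (26.6%) lie over Gins2 on the opposite strand. The library kit does not mark strand, Gins2 had a median of 1578 counts, and reads of the 2 genes cannot be told apart there.

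The order of levels was clearest at the top. Hdac1 exceeded Hdac2 in most cells (above), Hdac2 exceeded Kdm1a in 73 (76.04%, 66.3 to 84.2) and Rcor1 exceeded Phf21a in 73. Kdm1a exceeded Hmg20b in 65 cells (67.7%, 57.4 to 76.9). Hmg20b exceeded Zmym2 in 58 (60.4%, 49.9 to 70.3) and Zmym2 exceeded Rcor3 in 52 (54.2%, 43.7 to 64.4). Both intervals held an even split of the cells, so that these neighbours were not ordered. The intervals cover counting error only and take sister cells as independent. The lowest neighbours were not ordered either, since Gse1 exceeded Rcor2 in 38 cells (39.6%, 29.7 to 50.1), and both were at 0 in many cells. A cell had a median of 2 of the 10 genes under 1 TPM (range 0 to 4). Among the 7 genes other than Rcor2, Gse1 and Phf21a, 65 cells had all at 1 TPM or more, and no cell lacked more than 2.

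The sister pairs address whether the daughters of 1 division differ in these transcripts. At the cutoff of 1.5-fold that the study used, the daughters differed in Kdm1a in 37 of 48 pairs (77.1%, exact interval 62.7 to 87.97), beside 65.2% of all combinations of a gene past the filter and a pair. The share was 35 of 48 pairs for Rcor1, 41 for Rcor3, 28 for Rcor2, 29 for Hdac1, 32 for Hdac2, 43 for Phf21a, 32 for Hmg20b, 40 for Gse1 and 33 for Zmym2. Pairs with 0 counts in both daughters, 19 for Rcor2 and 7 for Gse1, were scored as not differing. The median over the 10 genes was 70.8%, near the background. Per pair, 4 to 10 of the genes differed, with a median of 7, and in 1 pair all 10 did. At a stricter cutoff of 2-fold the share for Kdm1a was 27 of 48 pairs, beside a background of 53.2%, and from TPM in place of normalized counts the background at 1.5-fold was 54.5%.

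Spike-in transcripts, which were added as 1 solution to every lysate, gave the spread of the method at each level. ERCC transcripts with a median TPM within 2-fold of Kdm1a differed 1.5-fold or more in 66.7% to 83.3% of the same pairs (9 transcripts), a range that holds the share for Kdm1a. Of the 8 genes with such ERCC transcripts, Hdac2 also lay within its range, at 66.7% beside 20.8% to 83.3% (9 transcripts). Hdac1 lay at the top of its range, at 60.4% beside 14.6% to 60.4% (10 transcripts). The median of those 10 transcripts was 44.8%, just below the interval of Hdac1, 45.3 to 74.2. Hmg20b (66.7%) and Zmym2 (68.8%) lay in ranges of 66.7% to 83.3% and 66.7% to 81.2%. Rcor3 lay above its range, at 85.4% of pairs beside 77.1% to 81.2% (4 transcripts), and Phf21a in 89.6% beside 87.5% for both of its transcripts. Rcor1 lay below, at 72.9% beside 77.1% (2 transcripts). The intervals of these 3 genes, 72.2 to 93.9, 77.3 to 96.5 and 58.2 to 84.7, all held the ERCC values. At this depth, a sister difference beyond that of the spike-in was not detectable for the 7 genes other than Hdac1. Hdac1 lay above the median of its ERCC transcripts but not above the highest of them. ERCC-00076 and ERCC-00092, with medians of 196.0 and 157.9 TPM, differed in 50% and 60.4% of pairs. The 10 transcripts near Hdac1 were counted in all 96 cells and so also entered the size factors. Gse1 and Rcor2 had no ERCC transcript at their level.

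**Figure D2:**
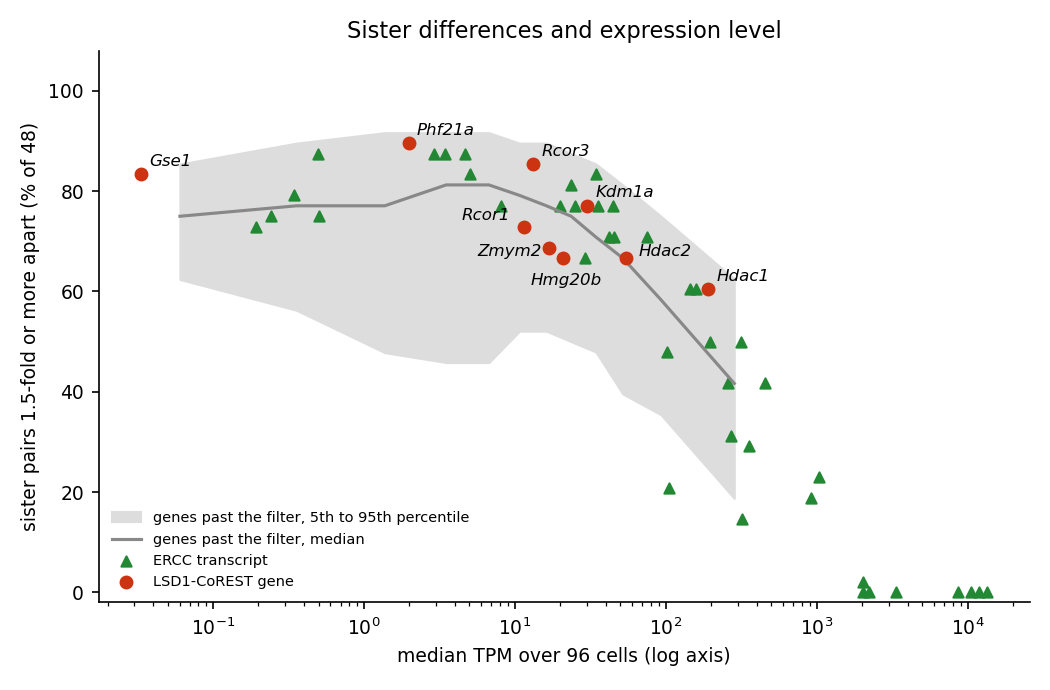
Share of the 48 sister pairs with a 1.5-fold or larger difference against the median TPM, for 9 LSD1-CoREST genes (red; Rcor2 has a median of 0), the ERCC transcripts with a median above 0 (green) and the genes past the filter (grey line and band, the median and the 5th to 95th percentile in bins of TPM). The red points lie between 60.4% for Hdac1 and 89.6% for Phf21a; Hdac1 is level with the highest of the green points within 2-fold of it, Gse1 has no green point near it, and the green points fall to 0% only at levels above those of the red points.

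Several sister differences were all or nothing in the counts. In 7 pairs 1 daughter had under 100 counts of Kdm1a and the other over 1000. The clearest were pair 1, with 0 and 1819 counts, pair 14, with 4 and 1466, and pair 2, with 3438 and 16. Rcor1 showed such a gap in 10 pairs, Gse1 in 8, Rcor3 in 7, Rcor2 in 5, Phf21a in 3, Hdac1 in 2, and Hdac2, Hmg20b and Zmym2 in 1 each. Summed over the 10 genes this was 9.38% of gene and pair combinations, beside 8.38% over all genes past the filter.

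The gaps in Kdm1a gathered in 1 set of cells. The names of the deposited files place the cells in 12 sets of 8, and 4 of the 7 gaps fell in the 4 pairs of the first set. That set had the lowest median level of Kdm1a, 10.6 TPM beside 22.6 to 47.5 in the others, and included the cell with the fewest genes past the filter counted, 10248. Without it the gap was seen in 3 of 44 pairs (6.82%), beside 14.6% of all 48. The sets are known only from file names, and their part in the result was not tested. The share of pairs with a 1.5-fold difference in Kdm1a without any 1 set lay between 75% and 81.8%.

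**Figure D3:**
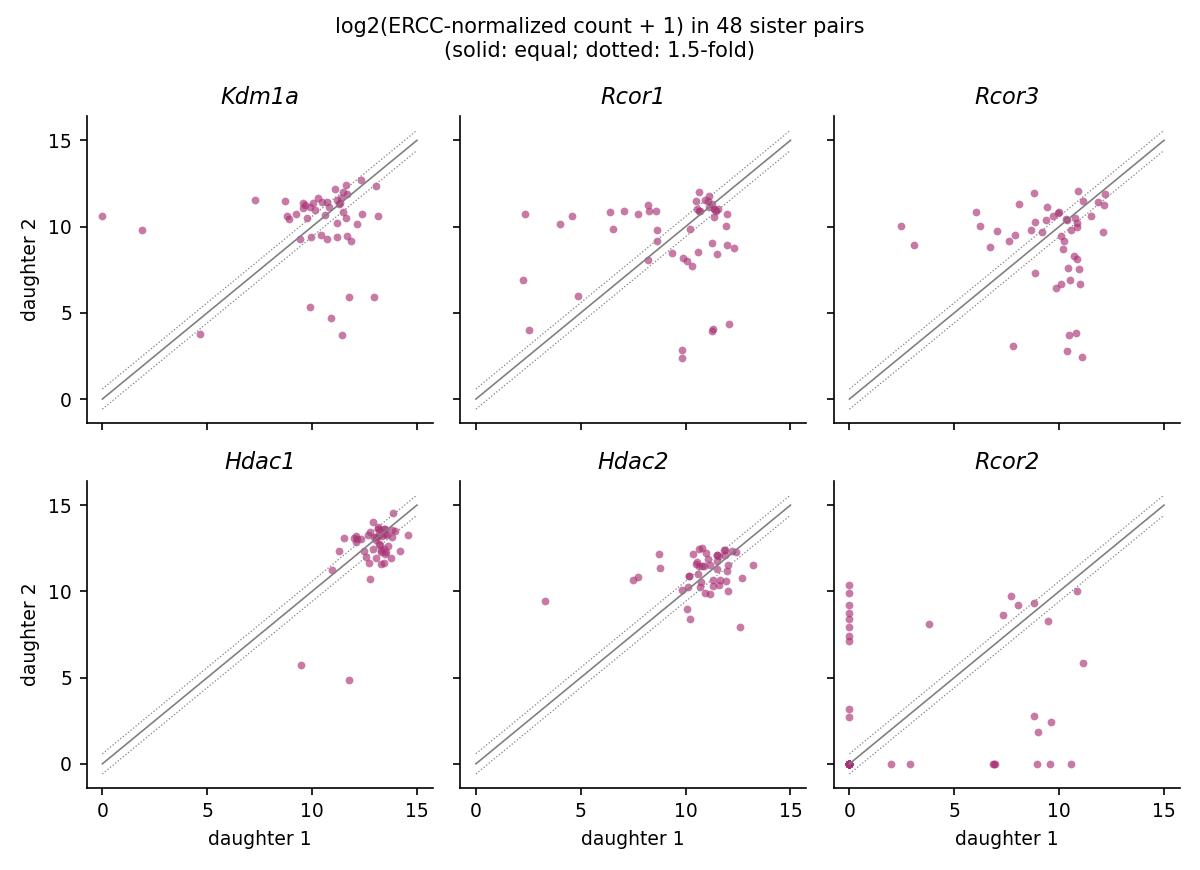
Normalized counts of 6 genes in the 2 daughters of each of 48 pairs, on a log2(count + 1) scale, with lines at equality and at 1.5-fold. Points gather near the diagonal for Hdac1 and spread to the axes for Rcor2, where 18 pairs had counts in only 1 daughter.

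Of the 10 genes, sisters were most alike in Hdac1. The intraclass correlation, the share of the variance of log2 normalized counts that lies between pairs, was 0.43 for Hdac1, beside a median of 0.16 over all genes past the filter (5th to 95th percentile, -0.12 to 0.54). Without set 8, which holds pair 29 with 1358 and 80 counts of Hdac1, both low for this gene, the value was 0.26. It was 0.26 for Hmg20b, 0.23 for Rcor2, 0.21 for Hdac2 and 0.20 for Phf21a, and 0.12 and 0.11 for Rcor1 and Kdm1a. For Zmym2, Rcor3 and Gse1 it was -0.025, -0.057 and -0.076, so that the point values showed no likeness of sisters in these genes. Without set 1 the value of Hdac2 was 0.0028. The median over the 10 genes was 0.16. Rcor2 was counted in both daughters of 11 pairs, in 1 daughter of 18 and in neither of 19. Gse1 was counted in both daughters of 13 pairs and in 1 daughter of 28, and Phf21a in both of 38 and in 1 of 10.

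In these counts, the genes of the complex correlated little more with each other over cells than other genes did. Over the 45 combinations of 2 genes, the median Spearman rho of log2 normalized counts was 0.096 over 96 cells (range -0.16 to 0.34), and the mean rho was 0.11, beside 0.093 over all combinations of genes past the filter. Scaled by library total in place of ERCC, the median was 0.013 and 26 of the 45 combinations were positive, beside 37 with ERCC scaling. Cells share 1 sequencing lane, the spike-in scaling and their depth, and coefficients this low in single-cell counts are given as a description. The spread of the method seen in spike-in transcripts of like level lowers such coefficients. Low values therefore cannot show that the genes vary apart in the cells. Kdm1a had a rho of 0.26 with Rcor1, 0.27 with Hdac2 and 0.22 with Hdac1 under ERCC scaling. With library totals the rho of Kdm1a was 0.14 with Rcor1, 0.14 with Hdac2 and 0.089 with Hdac1.

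Hdac1 and Rcor3 had the highest rho of the 45 combinations over sister differences under each of the 5 scalings. It was 0.46 over the 48 differences with ERCC scaling, and the same daughter was the higher in both genes in 35 of 48 pairs. With the 4 other scalings the coefficient over sister differences was 0.45 to 0.52, and without any 1 set it was 0.39 to 0.52. Pearson's r was lower, at 0.29. Over cells the order was not stable. The rho of Hdac1 and Rcor3 was 0.34 with ERCC scaling, but with medians of ratios it was 0.22, below the 0.24 of Rcor1 and Rcor3. By Pearson's r over cells Kdm1a and Hdac1 came first with 0.46, beside 0.19 for Hdac1 and Rcor3. At the other end, Kdm1a and Gse1 had a rho of -0.41 over sister differences, but 42 cells had 0 counts of Gse1 and its counts overlap Gins2.

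**Figure D4:**
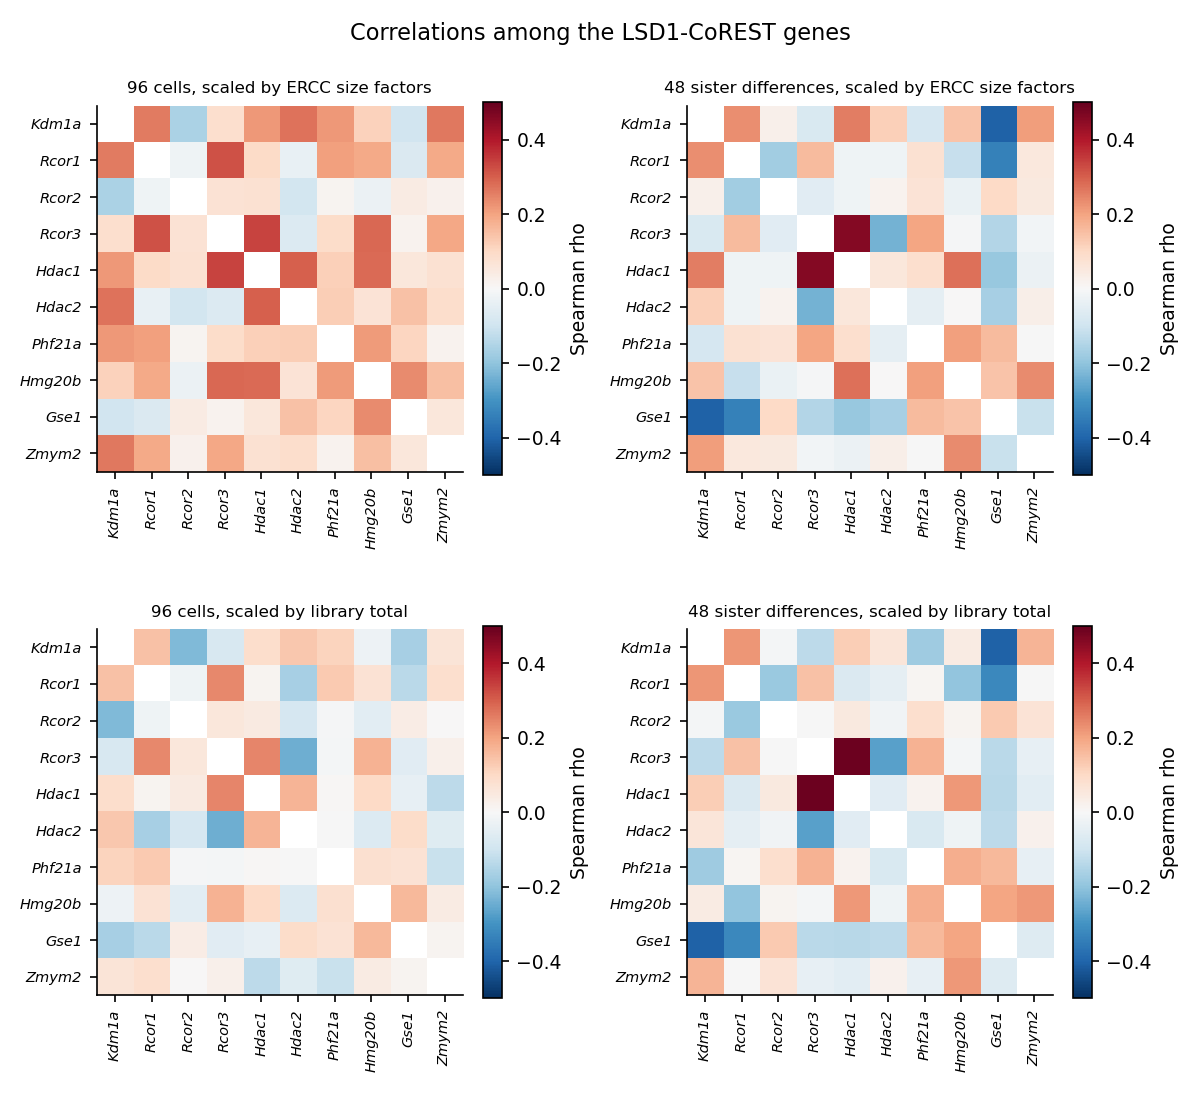
Spearman rho between the 10 genes over 96 cells (left) and over 48 sister differences (right), with ERCC scaling (top) and scaling by library total (bottom). Most squares are pale; the darkest red square, Hdac1 with Rcor3 in the sister differences, is seen under both scalings.

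Each gene was also set beside gene lists and totals: S-phase genes, G2 and mitosis genes, basal cell genes, epidermal differentiation genes, the summed H3.3 transcripts of H3f3a and H3f3b, and the gene counts per ERCC size factor. This gave 60 relations. Over cells 4 of the 60 lay outside the 5th to 95th percentile of all genes, and over sister differences 11 did, where 10% of all genes lie outside. With library totals these numbers were 6 and 10.

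From cell to cell, though less so between sisters, the deacetylase genes followed the S-phase genes. Over 96 cells Hdac1 had a rho of 0.52 and a Pearson r of 0.65 with the mean of 17 S-phase genes such as Mcm2, Pcna and Rrm2, beside a median of 0.12 and a 95th percentile of 0.36 over all genes. It correlated positively with 17 of the 17 genes (0.11 to 0.52). The genes past the filter had a median level of 7.12 TPM, far below that of Hdac1, and no comparison with genes of like level was made. Hdac2 had a rho of 0.40 and Kdm1a one of 0.14. With library totals the coefficients were 0.49 for Hdac1, 0.28 for Hdac2 and -0.023 for Kdm1a. Without the 2 cells farthest from the median, rho was 0.49 for Hdac1 and 0.37 for Hdac2. A tail of 17 cells had a low mean of S-phase genes, under 10 on the log2 scale, and the rho of Hdac1 was 0.67 within that tail and 0.44 within the other 79 cells. Over sister differences Hdac1 had a rho of 0.34 with the S-phase genes and Hdac2 one of 0.014.

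Zmym2 moved against the S-phase genes between sisters. Over the 48 sister differences its rho with the S-phase mean was -0.44, lower than for all but 0.021% of genes past the filter, whose 5th percentile was -0.19. The daughter with more S-phase transcripts had less Zmym2 in 33 of 48 pairs, and in 29 to 32 with the 4 other scalings. A negative coefficient was found for 16 of the 17 S-phase genes (median -0.20). As given above, the share of pairs that differed in Zmym2 lay within the range of ERCC transcripts of like level. The rho was -0.38 to -0.42 with the 4 other scalings, -0.38 to -0.50 without any 1 set and -0.40 without the 2 most distant pairs, and Pearson's r was -0.35. Over single cells the rho was -0.055. This relation was picked as an extreme of the 60. Another extreme, with ERCC scaling, was that of Phf21a with the epidermal differentiation genes. Its rho was 0.52 over sister differences, higher than for 99.99% of genes past the filter, and 0.24 over cells. With the basal cell genes the rho of Phf21a over sister differences was 0.38. Phf21a had 0 counts in 10 cells and was under 1 TPM in 41. Its coefficients over sister differences were likewise picked as extremes, and they were not recomputed without single sets or without the most distant pairs.

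The study compared sisters by their H3.3 transcripts, and the sister difference in H3.3 was followed most closely by Hdac2. The H3.3 genes H3f3a and H3f3b had medians of 234.3 and 885.7 TPM. The rho was 0.45 for Hdac2 and 0.41 for Hdac1, beside a 95th percentile of 0.39 over all genes, and 0.12 for Kdm1a. Hdac2 and H3.3 were higher in the same daughter in 34 of 48 pairs, and in 29 with library totals, medians of ratios or TPM. With library totals the coefficient was 0.50 for Hdac2, higher than for 99.9% of genes, 0.23 for Hdac1 and -0.087 for Kdm1a. Without any 1 set that of Hdac2 was 0.38 to 0.53. Over all pairs the coefficient of Hdac2 was thus above those of Hdac1 and Kdm1a under both scalings. Without the 2 pairs farthest from the median in H3.3, rho was 0.39 for Hdac2 and 0.40 for Hdac1 with ERCC scaling. The order of these genes was therefore not stable there, while with library totals the values were 0.50 and 0.24. The scaffold genes Rcor1 and Rcor3 had values of -0.034 and -0.064 over all pairs with ERCC scaling.

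**Figure D5:**
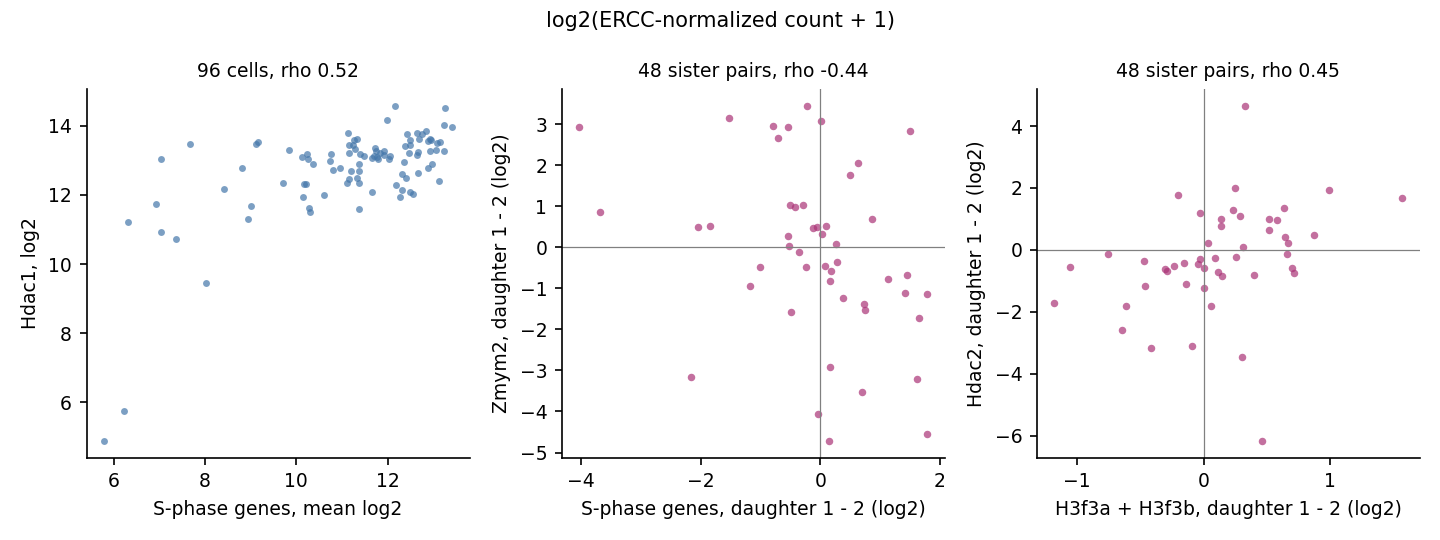
Left, Hdac1 against the mean of 17 S-phase genes in 96 cells, each as log2(normalized count + 1). Middle and right, daughter 1 minus daughter 2 on the same scale in 48 pairs, for Zmym2 against the S-phase genes (rho -0.44) and for Hdac2 against summed H3.3 transcripts (rho 0.45).

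Among the 6 lists and totals, Kdm1a had its highest coefficient over cells with the RNA content of the cell, under ERCC scaling. Its rho was 0.47 with the gene counts per ERCC size factor, beside a median of 0.29 over all genes, and both sides were divided by the same size factor. When Kdm1a was scaled by library total it was 0.19, beside a median of 0.057. With the basal cell genes its rho was 0.26 and with the epidermal differentiation genes 0.26, both inside the 5th to 95th percentile of all genes, and with the G2 and mitosis genes it was 0.22. The 5 genes most like Kdm1a over cells were Csnk2a1 (rho 0.52), Wbp1l (0.51), Ube2z (0.51), Nrd1 (0.50) and Csnk1a1 (0.50), beside a median of 0.15. With library totals they were Cd109 (0.42), Wbp1l (0.38), Kpna4 (0.37), Crtc3 (0.37) and Tfap4 (0.36), so that 1 of 5 was shared, and the coefficient of Csnk2a1 was 0.22. Over sister differences with ERCC scaling they were Ddb1 (0.52), Ubr1 (0.52), Marveld1 (0.51), Kpna4 (0.51) and Ptges (0.50), none of them among the 5 over cells. The order of genes by likeness to Kdm1a was therefore not stable between scalings or between cells and sister differences.

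The genes around the complex were expressed as well. Of 12 further subunits and paralogs, 11 passed the filter, led by the corepressor genes Ctbp1 at a median of 47.2 TPM and Mier1 at 30.2, while Phf21b, the paralog of Phf21a, was counted in 13 cells. All 11 NuRD, 10 SIN3 and 9 H3K4 methyltransferase or demethylase genes searched passed the filter. NuRD medians ran from 7.12 TPM for Mta1 and 12.01 for Gatad2b up to Mta2 at 73.1 and Rbbp7, given above. SIN3 medians ran from 0.499 TPM for Ing2 and 10.2 for Arid4a up to Sap18 at 50.5 and Sin3b. The H3K4 methyltransferase genes Kmt2b and Setd1b were lowest in their list, at 2.22 and 2.47 TPM. Among the last group Kdm5c and Kdm5b, which like Kdm1a encode H3K4 demethylases, had the highest medians, 17.2 and 14.7 TPM, beside 30.2 for Kdm1a. The shares of pairs with a 1.5-fold difference had medians of 83.3% over the further subunits, 64.6% over NuRD, 81.2% over SIN3 and 77.1% over the H3K4 genes. The share over all combinations of gene and pair was 65.2%. These lists lay at different levels, with medians of 9.84, 42.2, 16.5 and 7.53 TPM in the same order. Among genes past the filter the median share was 81.2% near 6.74 TPM and 66.7% near 51.9 TPM. A difference between the lists apart from level was not tested.

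Of 12 transcription factors known to recruit the complex, 2 were counted in every cell. Rest, which encodes the repressor of neuronal genes, had a median of 20.7 TPM, and Snai2, the Snail family repressor of basal epithelia, one of 42.6 TPM. Gfi1b, Snai1 and Tal1 were counted in 0 of 96 cells, for which the upper limit of the share of cells with a count is 3.12%, and Zeb1, Insm1, Zeb2, Gfi1 and Prdm1 in 1 to 6 cells. Between these, Nr2e1, which encodes the orphan nuclear receptor TLX, was counted in 75 cells at a median of 2.69 TPM, and Zfp750, an epidermal differentiation factor, in 31 cells at a median of 0. Of the 14 neuronal REST target genes, each had a median of 0 TPM. Stmn2, Syt4, Chga and Chrm4 were counted in 0 cells, while Snap25 was counted in 34, Bdnf in 29 and Unc13a in 27. The epidermal differentiation genes were uneven, with Sprr1a and Klf4 in 96 cells at medians of 73.04 and 29.8 TPM and 5 of 12 genes at a median of 0. Hdac1 and Hdac2 had a rho of -0.25 and -0.21 with the mean of these genes under library totals and of 0.047 and -0.0018 under ERCC scaling.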

How the data were processed

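Single daughter cells of cultured HBCs were prepared by G&T-seq with ERCC RNA, 18 PCR cycles and a Nextera XT kit, which does not mark strand, and sequenced in 1 NovaSeq lane. The authors trimmed reads with Trimmomatic 0.39, aligned them with STAR 2.7.11a to GRCm38 (Ensembl release 100) with the ERCC sequences, and quantified genes with StringTie 2.2.1. The authors deposited a table of integer counts and, for each cell, a table of TPM values. A deposited count stood for 75 bases of coverage (checked on 35 ERCC transcripts of 1 cell) and the reads were 150 bases long, so that a count is not 1 read. PCR copies were not removed by molecular identifiers.

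Counts were divided by ERCC size factors, which were medians of ratios over the 22 spike-in transcripts seen in every cell, and shown as log2(count + 1). The size factors ranged from 0.387 to 1.93. Levels between genes were compared as TPM, whose scaling includes ERCC. Detection was a count of 1 or more. The genes set beside the members were the 14463 that reached 10 counts in 10% of cells or more. Shares have exact Clopper-Pearson 95% intervals, and a count of 0 was given an upper limit of 3 of the 96 cells. Python 3.11.15, numpy 2.4.6, scipy 1.17.1, pandas 2.3.3 and matplotlib 3.10.9 were used, and the calculations were tested on simulated data. No 2 cells had a Spearman correlation of counts above 0.81. The genes named were the 10 subunit genes, the 2 highest and 2 lowest genes of each pathway list by median TPM, the 5 genes most like Kdm1a over cells and over sister differences, H3f3a, H3f3b, Mki67, genes that overlap a member, and the markers. Kdm1b, Hdac1-ps, Rest targets with counts and genes given as examples of a list fall outside that rule and were chosen after their values were seen. The members and the gene lists were chosen with earlier results of these data known. The ERCC transcripts of like level, the gap of under 100 and over 1000 counts and the tail of cells with few S-phase transcripts were chosen after the values were seen. So were the relations of Zmym2 with S-phase genes, of Phf21a with epidermal differentiation and basal cell genes, and of Hdac1 with Rcor3. The alternatives tried were 4 other scalings, a pseudocount of 10, a cutoff of 2, other detection limits, subtraction of set means, and leaving out each set of 8 cells.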

Additional observations from a re-analysis of the deposited data

How the results depend on the processing

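The settings gave 586 alternative values for 38 results. Of these 575 stayed within the 95% interval of the main value, or for counts and ratios within 1.5 times of it, and 11 did not. Many alternatives left out 1 of the 12 sets and so shared most cells with the main value. A value inside its interval could still differ much. The intraclass correlation of Hdac2 fell to 0.0028 without 1 set, beside 0.21. Under other settings Kdm1a with S-phase genes was as low as -0.047, beside 0.14, and Hdac1 with H3.3 as low as 0.18, beside 0.41. The number of genes counted in all 96 cells, 6 at a count of 1, was 3 at a minimum of 10 counts and 0 at 1 TPM. At a cutoff of 2 in place of 1.5, 5 of the 10 genes lay below their interval, such as Hdac1 at 35.4% and Kdm1a at 56.2% of pairs, beside 53.2% of all combinations of gene and pair. In TPM, Phf21a and Gse1 differed in 64.6% and 60.4% of pairs, and the background was 54.5%. Without a filter on low counts the background was 35.2%. The coefficient of Kdm1a with epidermal differentiation genes was 0.063 in TPM. The median share of pairs over the 10 genes was 69.3% to 73.9% without any 1 set, and 56.2% to 72.9% under the other settings.

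Genes under about 50 TPM differed between sisters about as often as ERCC transcripts of the same level, so that small differences in Kdm1a, Rcor1, Rcor3, Phf21a, Hmg20b or Zmym2 were not detectable in a single pair. Transcripts were counted, not protein, and the amount of complex in a daughter was not measured.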
